A study of Mus musculus with 8 samples.

Results

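The LGR receptors and the R-spondin axis were examined here in sorted mouse melanocyte stem cells with and without Bmi1. The set held 9 genes of the 54418 Ensembl identifiers in the deposited tables, found by symbol: the receptors Lgr4, Lgr5 and Lgr6, the ligands Rspo1, Rspo2, Rspo3 and Rspo4, and the membrane ubiquitin ligases Znrf3 and Rnf43. The family was selected on the known difference of Lgr6 counts between control and Bmi1-deleted libraries, so the values of that contrast are a description of the family and support nothing further. Of the 9 members, 5 had enough counts to be tested (Lgr4, Lgr5, Lgr6, Znrf3 and Rnf43), and the 4 R-spondins did not.

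LGR receptors are membrane proteins with leucine-rich repeats that bind secreted R-spondins. Znrf3 and Rnf43 mark Frizzled receptors for removal from the cell surface and so lower the response to WNT, and an R-spondin bound to an LGR receptor takes these ligases off the membrane. Lgr5 and Lgr6 are known as markers of separate epithelial stem cell pools of the hair follicle, where melanocyte stem cells also reside, while Lgr4 is expressed in many tissues. WNT signalling through beta-catenin is known to direct melanocyte stem cells towards pigment cells. Bmi1 is a subunit of Polycomb repressive complex 1, a chromatin complex that keeps genes silent, and the comparison asked how its loss changes the RNA of these cells.

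All 8 libraries came from dorsal skin at postnatal day 21 of mice on a mixed C57Bl-6;129Sv background that had been fed doxycycline pellets. Both groups carried floxed Bmi1 alleles (Bmi1fl/fl) and the 2 transgenes Dct-rtTA and TRE-H2B-GFP, which together label cells that use the promoter of the pigment gene Dct with a nuclear GFP. The 4 control libraries had no further allele, and the 4 Bmi1-deleted libraries also carried Tyrosinase-Cre, a recombinase under the promoter of a pigment gene. Dissociated cells that took up no DAPI (a dye for dead cells), showed no autofluorescence and carried GFP were sorted, and total RNA was sequenced. The labels do not say that replicates came from separate animals, so every p-value below speaks only to the spread among these libraries, which may be technical.

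The libraries held 8882656 to 10368174 counts. Bmi1 stood at 75.4 to 97.2 CPM in control and 68.8 to 70.8 CPM in Bmi1-deleted libraries (CPM are counts scaled to library size by TMM), and the labels do not name the deleted exons, so reads outside them can remain. Cdkn2a, which Bmi1 is known to silence, had 0 counts in each control library and 38 to 85 in the Bmi1-deleted libraries. The sorted cells carried markers of melanocytes, with a sum over 12 markers of 9671 to 15815 CPM in control and 5511 to 11206 CPM in Bmi1-deleted libraries. Of these 12, 11 had a log2 change below 0, and the median was −0.73. By edgeR 0 passed, and with the replicate number as a block 9 passed as lower, where 0.706% of all tested genes did. The sorted cells also carried markers of other skin cells. The summed level of 17 fibroblast markers was 4956 to 8701 CPM in control and 8555 to 18411 CPM in Bmi1-deleted libraries, with 17 of 17 group means higher in the latter, and that of 10 Schwann cell markers was 2555 to 4753 and 4669 to 6494 CPM. The 15 markers of follicle and basal keratinocytes summed to 2089 to 2433 and 1865 to 3494 CPM, and the 8 of dermal papilla cells to 9.3 to 24.7 and 14.9 to 24.5 CPM. The other lists summed to 19.0 to 43.3 and 29.9 to 110.5 CPM for 8 endothelial markers, 49.3 to 84.3 and 64.5 to 208.6 CPM for 8 mural markers and 41.9 to 72.0 and 67.5 to 112.9 CPM for 9 immune markers. In these bulk samples fewer cells of a type and less RNA per cell cannot be told apart.

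Levels of different members were compared in TPM, which are scaled per length, taken back from the deposited log2 table. In control libraries Lgr4 stood highest at 7.99 ± 2.93 TPM (SD, n = 4), above 77.7% of the 17871 protein coding genes with a value. Its lowest control library, 5.62 TPM, lay above the highest library of any other member, 4.40 TPM for Znrf3. Znrf3 (2.90 ± 1.17 TPM), Lgr5 (2.40 ± 1.13 TPM) and Lgr6 (2.29 ± 0.853 TPM) followed with ranges that overlapped one another, and they stood above 57.8%, 54.4% and 53.6% of those genes. Rnf43 came next at 1.12 ± 0.432 TPM, with a range that overlapped those of Znrf3, Lgr5 and Lgr6. Within each control library, however, Rnf43 lay below all of these, and Znrf3 lay above Lgr5. The R-spondins were the lowest members, from 0.462 ± 0.401 TPM for Rspo3 to 0.0154 ± 0.0308 TPM for Rspo4. In Bmi1-deleted libraries Lgr4 was again highest at 5.84 ± 1.36 TPM, followed by Znrf3 at 2.38 ± 0.868, Lgr5 at 2.04 ± 0.513 and Lgr6 at 1.15 ± 0.635 TPM.

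Lgr4 and Lgr6 differ most in what was measured on them below, and Polycomb complexes are known to act largely at promoters rich in CpG, so the 250 bases before the start of each gene are shown. They come from the RefSeq promoter table (GRCm38.p6), run 5′ to 3′ on the strand of the gene, and have each CG dinucleotide in capitals. The Lgr4 stretch lies at chr2:109917397-109917646 on the plus strand and the Lgr6 stretch at chr1:135105277-135105526 on the minus strand.
Lgr4: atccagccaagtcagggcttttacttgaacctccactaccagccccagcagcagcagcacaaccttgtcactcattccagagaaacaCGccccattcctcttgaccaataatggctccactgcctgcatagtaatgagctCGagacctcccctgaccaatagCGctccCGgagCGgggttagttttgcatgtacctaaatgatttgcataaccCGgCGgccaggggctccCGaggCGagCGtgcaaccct
Lgr6: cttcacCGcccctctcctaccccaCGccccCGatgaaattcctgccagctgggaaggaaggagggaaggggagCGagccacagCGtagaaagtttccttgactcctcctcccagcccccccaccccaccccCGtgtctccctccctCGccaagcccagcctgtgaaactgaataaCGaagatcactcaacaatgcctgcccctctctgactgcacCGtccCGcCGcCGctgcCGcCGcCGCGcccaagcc
Lgr6 had 16 CG dinucleotides and a GC content of 65.2%, more CG than 74.6% of 32817 promoters in the table. Lgr4 had 10 and 55.6%, more CG than 62.2% of them, and the medians over the table were 6 CG dinucleotides and 52.4% GC. The table held entries for 5 of the 9 members, with 6 starts in all. Of the others, Rspo1 had 22 CG dinucleotides, Rspo4 had 24, and the starts of Rnf43 had 8 and 2. Searched on both strands, neither the E-boxes CACGTG (in 6.02% of all promoters) and CATGTG (in 12.3%) nor the TCF words CTTTGAT (in 3.21%), CTTTGTT (in 5.03%), CTTTGAA (in 4.46%) and CTTTGTA (in 3.20%) were found in the Lgr4 and Lgr6 stretches. The Rspo4 stretch held 1 match, to CACGTG, and those of Rspo1 and Rnf43 held 0. CACGTG is known as a site of the melanocyte factor Mitf and the TCF words as sites of the partners of beta-catenin. A match or its absence describes these letters only.

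Lgr6 had the widest log2 difference between the groups among the 5 tested members (ENSMUSG00000042793, mm10 chromosome 1, 134983301 to 135105276, minus strand). It had 324, 516, 381 and 516 counts in control libraries 1 to 4 and 184, 259, 164 and 178 in Bmi1-deleted libraries 1 to 4. Every Bmi1-deleted library lay below every control library, and each was lower than the control library of its own number. After scaling, the level was 46.7 ± 11.0 CPM in control and 21.1 ± 3.22 CPM in Bmi1-deleted libraries (SD, n = 4), 45.2% of control. The log2 change was −1.14 (SE 0.20, 95% interval −1.57 to −0.71, edgeR quasi-likelihood adjusted p = 0.0515), which missed the threshold of 0.05. Once the replicate number entered as a block, the change was −1.13 and the edgeR adjusted p = 0.00247. Among the 16011 genes tested, 17 had a smaller p without the block. When single libraries were left out, the change ran from −1.26 to −1.02 and the edgeR adjusted p from 0.0254 to 0.211. With a fibroblast score of each library (the mean log2 CPM of its fibroblast markers) as a covariate the change was −1.17 (edgeR adjusted p = 0.113), and with sex as a covariate it was −1.21 (edgeR adjusted p = 0.0369). Of the 15 markers of follicle and basal keratinocytes, 12 had a higher group mean in Bmi1-deleted libraries. They cover a wider range of cells than the follicle pool that Lgr6 is known to mark, so they do not measure that pool. The median log2 change of the 15 was 0.13. Over all 16011 tested genes, 8118 had a log2 change above 0. None of the 15 passed by edgeR without the block. At an unadjusted p under 0.05, 2 were higher and 1 lower, where 772 and 552 of all tested genes were. With the block 2 passed as higher, where 1.71% of all tested genes did. They were Itga6 (0.58, edgeR adjusted p = 0.00252) and Krt79 (1.01, edgeR adjusted p = 0.0489). The basal keratins Krt5 (310 ± 33.9 CPM in control and 291 ± 110 CPM in Bmi1-deleted libraries) and Krt15 (319 ± 70.2 and 322 ± 84.4 CPM) and the basal factor Trp63 (86.0 ± 22.3 and 63.7 ± 9.73 CPM) did not pass (SD, n = 4). Plet1 (47.3 ± 14.8 and 59.3 ± 41.8 CPM) and Cd34 (5.55 ± 2.17 and 13.3 ± 12.7 CPM) had higher means and did not pass either. The melanocyte markers were mostly lower in Bmi1-deleted libraries, as given above. The parts of keratinocyte and of melanocyte RNA in the Lgr6 difference were not tested.

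**Figure D1:**
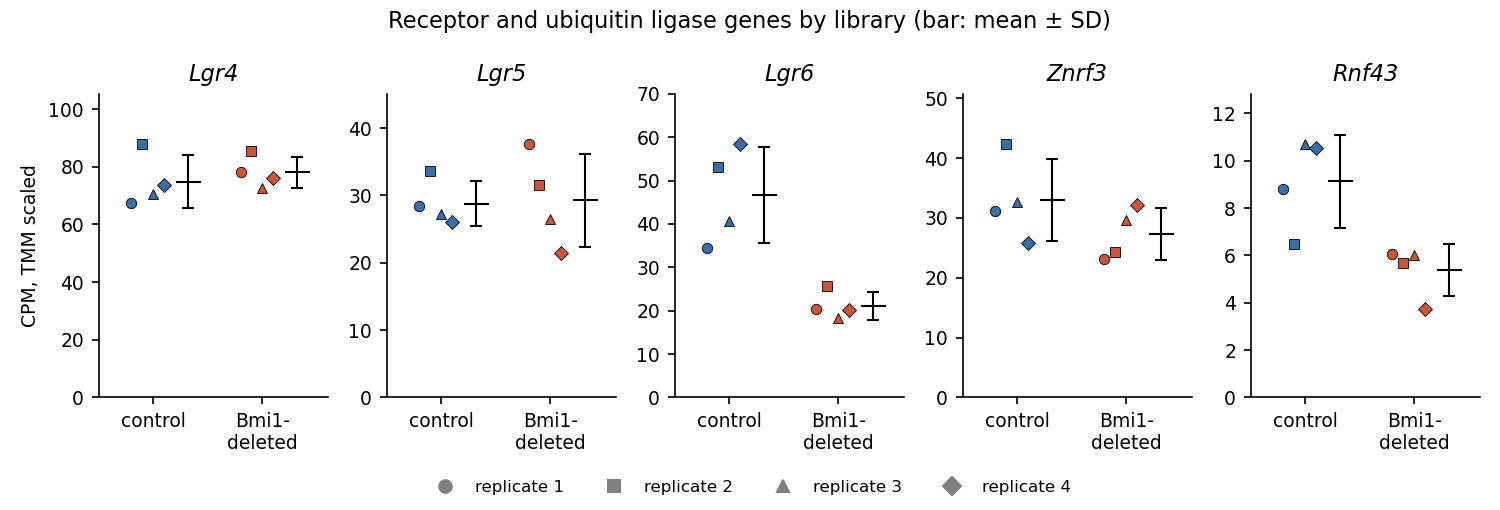
Level of the 5 tested members by library, in CPM scaled by TMM on linear axes from 0, with control libraries in blue and Bmi1-deleted libraries in red, 1 marker shape for each replicate number, and the mean with its SD to the right of the points. The groups of Lgr6 (34.4 to 58.4 against 18.2 to 25.7 CPM) and of Rnf43 (6.49 to 10.7 against 3.74 to 6.07 CPM) lie apart, and those of Lgr4, Lgr5 and Znrf3 overlap.

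The deposited TPM gave a smaller separation of Lgr6. They were 1.80, 3.54, 1.69 and 2.11 in control libraries 1 to 4 and 2.08, 1.06, 0.771 and 0.703 in Bmi1-deleted libraries 1 to 4. Bmi1-deleted library 1 lay among the controls and the other 3 lay below all of them. On the log2(TPM + 1) scale, which understates the change of low genes, the difference was −0.62 (limma adjusted p = 0.805, unadjusted 0.0499), and limma called 0 genes of the 23534 tested on that table (0% called). TPM divide a count by the length of the transcripts to which its reads were assigned, so count over TPM gives that length, scaled here on 299 genes with a single annotated transcript. For Lgr6 the implied length was 6521 to 6826 bases in 7 libraries and 2842 bases in Bmi1-deleted library 1. The annotation lists 2 coding transcripts of Lgr6 with 6675 and 2820 bases, and a noncoding one with 360. The library whose Lgr6 TPM lay among the controls was thus the one whose reads were assigned at about the length of the shorter coding transcript, while its 184 counts lay below all controls. Whether that assignment reflects the RNA was not tested.

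**Figure D2:**
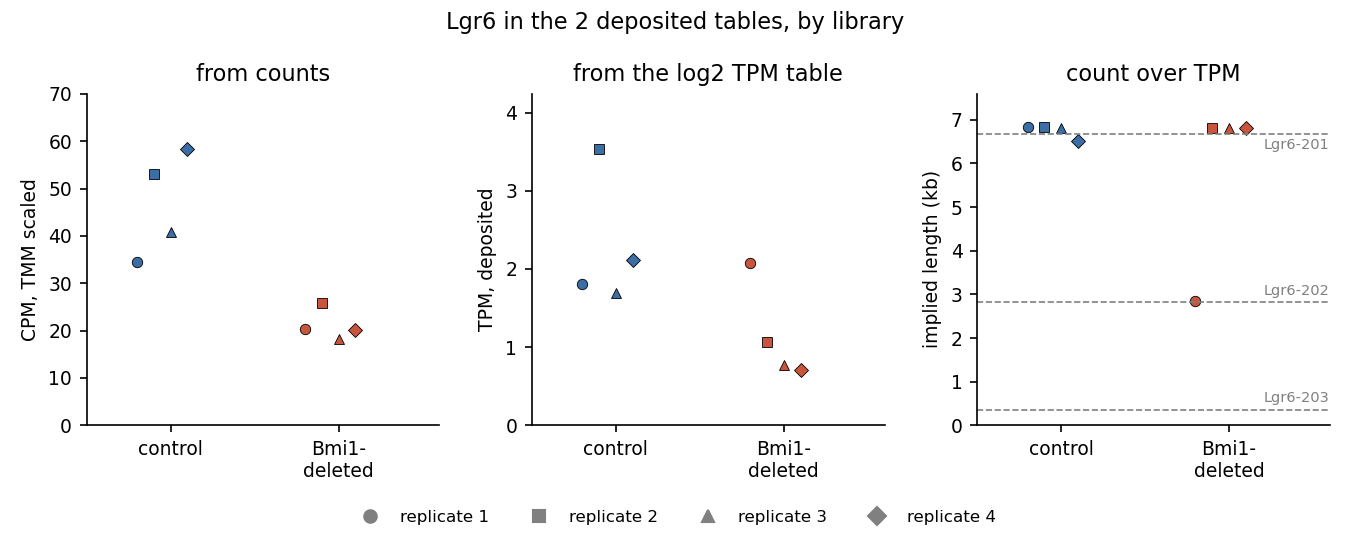
Lgr6 by library in CPM from the counts (left), in deposited TPM (middle) and as the transcript length that count over TPM implies, in kb (right), where dashed lines mark the 3 annotated transcripts. Bmi1-deleted library 1 (red circle) sits at 20.3 CPM with the other Bmi1-deleted libraries, at 2.08 TPM among the controls, and at 2842 bases against 6521 bases or more in the other 7 libraries.

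Lgr4, the receptor with the widest expression, did not differ detectably (ENSMUSG00000050199, chromosome 2, 109917647 to 110014257, plus strand). Its counts were 634, 853, 660 and 652 in control and 709, 860, 654 and 670 in Bmi1-deleted libraries. The library of replicate 2 was the highest of both groups, and the groups overlapped throughout. The level was 74.9 ± 9.02 CPM in control and 78.1 ± 5.40 CPM in Bmi1-deleted libraries, a log2 change of 0.06 (SE 0.13, 95% interval −0.21 to 0.33, edgeR adjusted p = 0.96).

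Lgr5, a marker of stem cells in the follicle's bulge, overlapped between the groups as well (ENSMUSG00000020140, chromosome 10, 115450311 to 115587780, minus strand). It had 267, 326, 254 and 230 counts in control and 341, 317, 239 and 189 in Bmi1-deleted libraries. The Bmi1-deleted group held both the highest and the lowest library of the 8. The level was 28.8 ± 3.33 and 29.3 ± 6.91 CPM, and the log2 change was 0.02 (SE 0.20, 95% interval −0.40 to 0.45, edgeR adjusted p = 0.988). With the fibroblast score as a covariate the change was −0.35 (edgeR adjusted p = 0.6). The sign was reversed in 7 of 22 alternatives, some of which only left out a single library, so no direction is read.

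The make-up of the receptor family followed from these levels. Of the summed counts of Lgr4, Lgr5 and Lgr6, Lgr6 made up 26.4%, 30.4%, 29.4% and 36.9% in control libraries 1 to 4 and 14.9%, 18.0%, 15.5% and 17.2% in Bmi1-deleted libraries 1 to 4, 30.8% ± 4.41 against 16.4% ± 1.44 (SD, n = 4). The groups did not overlap. Lgr4 held 49.9% ± 2.27 of the receptor counts in control and 61.0% ± 3.03 in Bmi1-deleted libraries, also without overlap. That of Lgr5 was 19.3% ± 2.19 and 22.6% ± 3.86, with overlap. In CPM, the ratio of Lgr6 to Lgr5 was 1.21 to 2.24 in control and 0.540 to 0.942 in Bmi1-deleted libraries, so Lgr6 counts outnumbered Lgr5 counts in each control library and in none of the others. Lgr6 has the longer transcript, and in TPM it made up 18.3% ± 3.09 of the receptors in control and 12.4% ± 4.93 in Bmi1-deleted libraries, with overlap through Bmi1-deleted library 1 at 19.7%. Without that library the difference in the TPM share was −8.35 percentage points in place of −5.91.

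**Figure D3:**
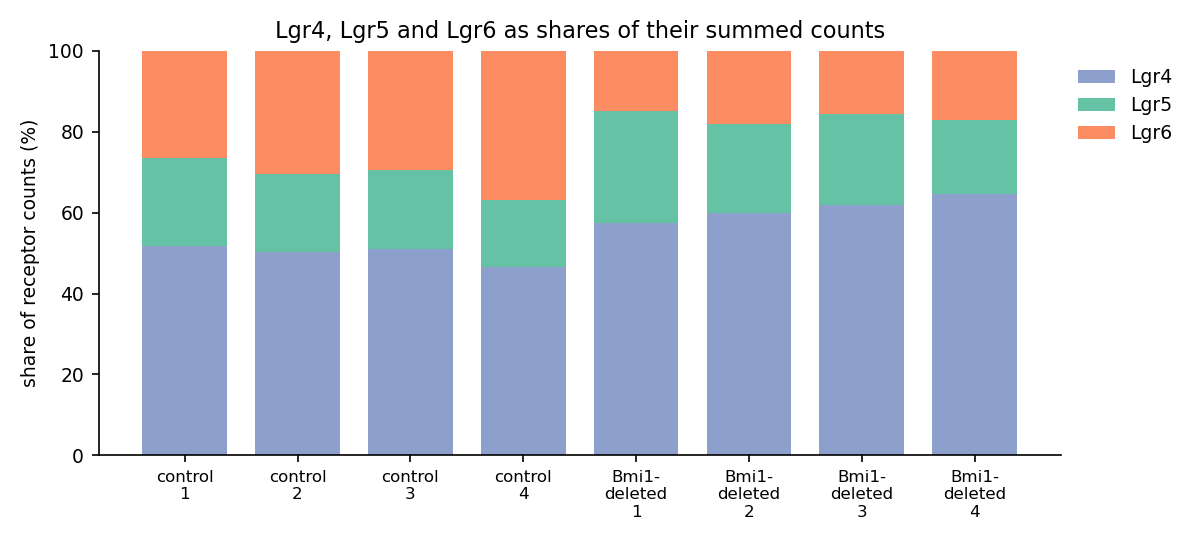
Shares of Lgr4, Lgr5 and Lgr6 in their summed counts, in percent, with 1 stacked bar for each library from 0 to 100. The Lgr6 part spans 26.4% to 36.9% in the control bars and 14.9% to 18.0% in the Bmi1-deleted bars.

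Rnf43, one of the ligases, also lay apart between the groups, at a low level (ENSMUSG00000034177, chromosome 11, 87662722 to 87735539, plus strand). It had 83, 63, 100 and 93 counts in control and 55, 57, 54 and 33 in Bmi1-deleted libraries. Control library 2 came within 6 counts of the nearest Bmi1-deleted library, and each Bmi1-deleted library was below the control library of its number. The level was 9.13 ± 1.96 CPM in control and 5.37 ± 1.10 CPM in Bmi1-deleted libraries (SD, n = 4). The log2 change was −0.76 (SE 0.33, 95% interval −1.48 to −0.05), and it did not pass over all genes (edgeR adjusted p = 0.576, unadjusted 0.0388). In TPM the groups overlapped, at 0.943, 1.75, 0.760 and 1.02 in control and 0.599, 0.538, 0.793 and 0.262 in Bmi1-deleted libraries.

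Znrf3, the other ligase and itself a known target of WNT signalling, had 294, 411, 305 and 228 counts in control and 209, 244, 266 and 284 in Bmi1-deleted libraries (ENSMUSG00000041961, chromosome 11, 5276324 to 5444847, minus strand). Control library 2 was the highest and the groups overlapped. The level was 33.0 ± 6.88 and 27.3 ± 4.34 CPM, with a log2 change of −0.28 (SE 0.19, 95% interval −0.69 to 0.14, edgeR adjusted p = 0.805). The ligases together summed to 36.3 to 48.8 CPM in control and 29.1 to 35.9 CPM in Bmi1-deleted libraries, and the receptors to 130 to 175 and 118 to 143 CPM.

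Counted over the family, 0 of the 5 tested members passed by edgeR without the block, where 0.0937% of all tested genes did (0.0874% higher and 0.00625% lower). At an unadjusted p under 0.05, 2 members were lower and 0 higher, where 552 and 772 of all 16011 tested genes were. With the block 1 member, Lgr6, passed as lower, where 0.706% of all tested genes passed as lower and 2.41% in either direction, and DESeq2 also called Lgr6 alone among the members (adjusted p = 0.000388). The CPM of 2 of the 5, Lgr6 and Rnf43, were lower without overlap, against 2.39% of all tested genes, and 5.18% in either direction. The median log2 change of the 5 was −0.28, beside 0.01 over all tested genes. Nothing is read from these counts, since the family was chosen with this contrast known.

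The R-spondins are secreted, and the sorted cells held few of their reads. Rspo1 (chromosome 4, 124986430 to 125009099, plus strand), the first member of the ligand family, had 1, 8, 0 and 1 counts in control and 13, 31, 2 and 1 in Bmi1-deleted libraries. Its reads lay mostly in Bmi1-deleted libraries 1 and 2, and the other 2 libraries of that group were at or under 3 counts, the limit that a count of 0 allows. Bmi1-deleted libraries 1 and 2 also had the highest fibroblast sums, 18411 and 15512 CPM, against 10736 and 8555 CPM in Bmi1-deleted libraries 3 and 4. The control libraries did not follow this order. Control library 2 had 8 counts at a fibroblast sum of 6997 CPM, and control library 1 had 1 count at 8701 CPM. The part of fibroblast RNA in the Rspo1 reads was not tested. Rspo3 (chromosome 10, 29452416 to 29535867, minus strand), a ligand that dermal and endothelial cells are known to make, had 10, 15, 5 and 6 counts in control and 18, 1, 8 and 6 in Bmi1-deleted libraries. It was the only R-spondin with a count in each of the 8 libraries, and Bmi1-deleted libraries held both its highest and its lowest value. Its difference on the log2(TPM + 1) scale was −0.11 (limma adjusted p = 0.929), and that of Rspo1 was 0.39 (limma adjusted p = 0.805).

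Rspo2 (chromosome 15, 43020794 to 43170826, minus strand), which is known from the dermal papilla and from variation of the coat in dogs, had 4, 3, 4 and 0 counts in control and 0 in each Bmi1-deleted library. A count of 0 allows up to 0.298 to 0.340 CPM in those libraries. Control libraries 1 and 3 lay above these limits at 0.425 and 0.428 CPM, control library 2 lay among them at 0.309 CPM and control library 4 at 0. The totals were 11 counts in control and 0 in Bmi1-deleted libraries. Rspo2 fell under the filter, so this difference was not tested and no fold is given. Rspo4 (chromosome 2, 151842927 to 151874668, plus strand), known for its part in nail growth, had 0, 3, 0 and 0 counts in control and 4, 4, 0 and 10 in Bmi1-deleted libraries. The groups overlapped at 0 counts. The 8 dermal papilla markers summed to 16.0 ± 6.94 CPM in control and 18.0 ± 4.49 CPM in Bmi1-deleted libraries (SD, n = 4). Of the 8, 4 had a higher group mean in Bmi1-deleted libraries. The 3 that were tested had log2 changes above 0, and 0 passed by edgeR with or without the block. Corin (0.266 ± 0.467 and 0.193 ± 0.386 CPM) and Alpl (0.463 ± 0.927 and 0.431 ± 0.659 CPM) were near 0 and fell under the filter. All R-spondins together held 7 to 29 counts in a control library and 10 to 36 in a Bmi1-deleted library, beside 1037 to 1695 for the receptors.

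**Figure D4:**
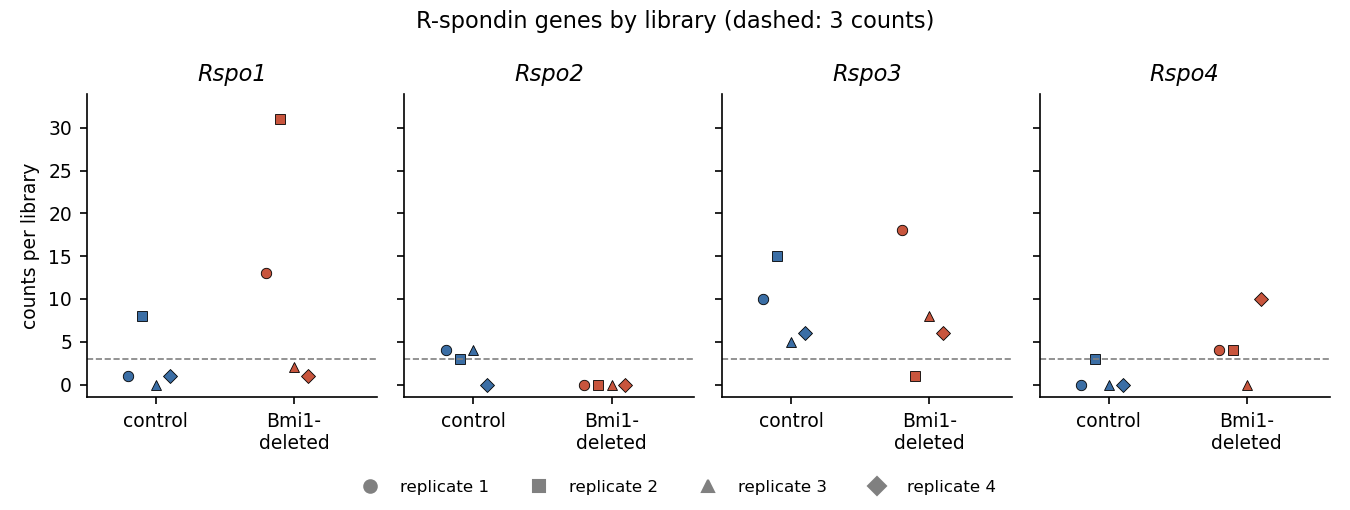
Counts of the 4 R-spondin genes in each library on 1 linear axis, with control in blue, Bmi1-deleted in red and a dashed line at 3 counts, the limit that a count of 0 allows. Rspo2 lies at 0 in the 4 Bmi1-deleted libraries and at 4 or less in control, and the highest point is Rspo1 in Bmi1-deleted library 2 with 31 counts.

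The rest of the WNT pathway was read from 10 lists with 115 genes, of which 89 were tested. None passed by edgeR without the block. At an unadjusted p under 0.05, 10 were higher and 7 lower, where 772 and 552 of all 16011 tested genes were. With the block 4 passed as higher and 2 as lower, where 1.71% and 0.706% of all tested genes did. The median log2 change of the 89 was 0.08. The groups of 2 did not overlap as higher and of 4 as lower, where 2.79% and 2.39% of all tested genes did so.

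Among the secreted and surface antagonists of WNT, 3 of 13 tested passed with the block as higher and 0 as lower. Sostdc1, a secreted inhibitor of WNT and BMP, stood at 153, 98.6, 113 and 92.2 CPM in control and 256, 194, 165 and 183 CPM in Bmi1-deleted libraries, all of the latter above all of the former (log2 change 0.81 with the block, edgeR adjusted p = 0.000947, and 0.131 without it). Sfrp1, which binds WNT proteins, stood at 126, 137, 90.8 and 80.0 CPM in control and 186, 231, 133 and 115 CPM in Bmi1-deleted libraries, with overlap (0.60, block adjusted p = 0.00471 by edgeR, and 0.532 without it). Apcdd1, a membrane inhibitor that is also a target gene, stood at 35.8 ± 11.7 and 55.0 ± 13.1 CPM (0.64, block adjusted p = 0.0294 by edgeR, and 0.531 without it). The most abundant antagonist, Dkk3, was at 364 ± 73.0 and 289 ± 107 CPM and did not pass in either fit.

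Of 15 receptors and coreceptors, 1 passed with the block. Fzd1, a Frizzled receptor, was at 185, 151, 130 and 96.5 CPM in control and 192, 220, 181 and 166 CPM in Bmi1-deleted libraries (0.47, block adjusted p = 0.0478 by edgeR, and 0.527 without it). The coreceptor Lrp6 was at 241 ± 24.7 and 202 ± 15.7 CPM without overlap, and did not pass in either fit (edgeR adjusted p = 0.586, and 0.27 with the block). Among 9 tested ligands of 19 none passed, and the most abundant were Wnt6 (14.7 ± 5.88 and 23.6 ± 3.62 CPM) and Wnt4 (8.33 ± 1.58 and 8.67 ± 4.42 CPM). Of the secretion genes, Wls, the carrier of WNT proteins, was at 78.1 ± 11.7 and 71.0 ± 13.7 CPM and Porcn, the enzyme that adds their lipid, at 3.39 ± 1.41 and 3.73 ± 1.56 CPM.

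Inside the cell, Ctnnb1, which encodes beta-catenin, was at 883, 923, 1013 and 1111 CPM in control and 650, 689, 847 and 866 CPM in Bmi1-deleted libraries, without overlap (−0.37, block adjusted p = 0.0436 by edgeR, and 0.477 without it). It was the only one of 15 tested genes of destruction and relay that passed, and the next most abundant, the kinase gene Csnk1a1, was at 447 ± 25.4 and 473 ± 21.5 CPM. Axin2, a widely used target of beta-catenin, was at 167, 178, 200 and 256 CPM in control and 89.1, 132, 171 and 191 CPM in Bmi1-deleted libraries, with overlap (−0.49, block adjusted p = 0.0311 by edgeR, and 0.633 without it). Of the 13 target genes tested, 1 passed with the block as lower (Axin2) and 1 as higher (Apcdd1). The other abundant targets, Nkd1 (213 ± 31.6 and 277 ± 42.7 CPM) and Myc (211 ± 25.4 and 260 ± 48.2 CPM), did not pass. Neither did any of the 12 TCF/LEF factors and coactivators, of which Tle3 (343 ± 31.1 and 398 ± 34.3 CPM) and Bcl9l (202 ± 15.4 and 234 ± 31.5 CPM) were the most abundant.

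Some of these pathway calls changed when the fibroblast score was added to the fit. With that score beside the block, Sostdc1 (1.00, edgeR adjusted p = 0.0408) and Fzd1 (0.92, edgeR adjusted p = 0.044) passed and Sfrp1, Apcdd1, Ctnnb1 and Axin2 did not (edgeR adjusted p = 0.267, 0.386, 0.481 and 0.733). The log2 changes of these 4 were then 0.56, 0.70, −0.33 and −0.25, against 0.60, 0.64, −0.37 and −0.49 with the block alone. Over all genes that fit called 89 higher and 30 lower, against 273 and 113 with the block alone. The score is a further term in a fit of only 8 libraries, which by itself makes calls harder to reach. The part of fibroblast RNA in the lost calls was not tested. The change of Axin2 was −0.02 with the score and no block. When each pair of libraries was left out of the blocked fit in turn, Lgr6 and Sostdc1 passed in 4 of 4 fits, Sfrp1 in 3, Fzd1 and Axin2 in 1, and Apcdd1 and Ctnnb1 in 0.

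**Figure D5:**
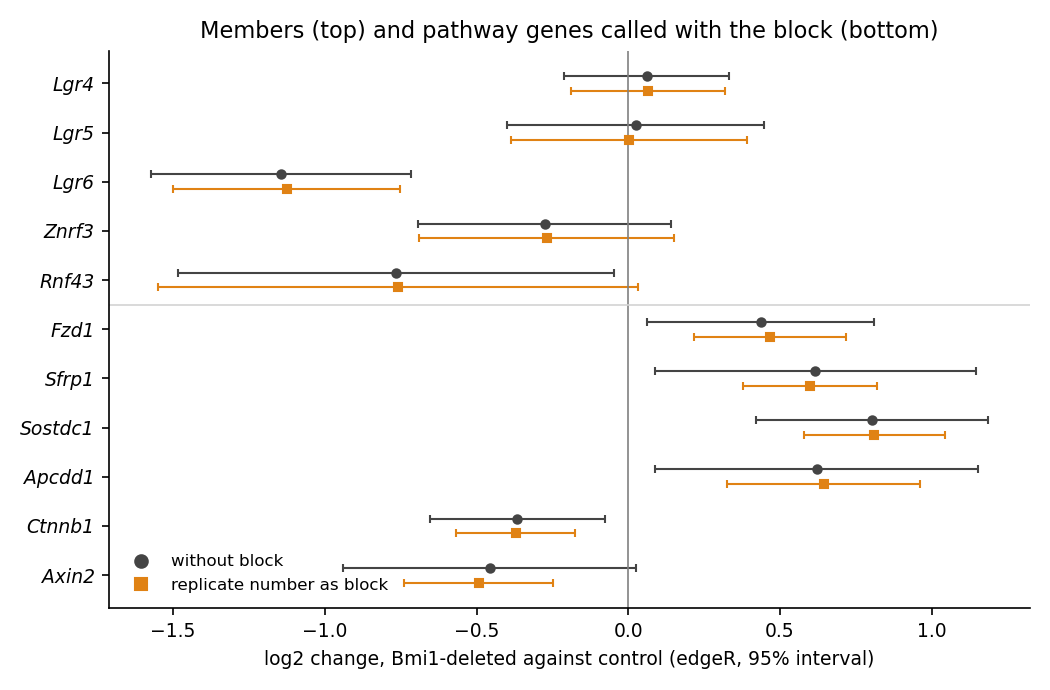
Log2 change of Bmi1-deleted against control libraries with its 95% interval by edgeR, for the 5 tested members (top) and the 6 pathway genes that passed with the block (bottom), without the block (grey circles) and with it (orange squares). Lgr6 lies at −1.14 without and −1.13 with the block, and the intervals of Lgr4, Lgr5 and Znrf3 include 0 in both fits.

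Relatives and partners of the family were read in the same way. Among 5 tested partners of LGR receptors or R-spondins, none passed, and the most abundant were Iqgap1, a scaffold protein that binds Lgr4 (725 ± 81.5 and 672 ± 46.2 CPM), and Sdc4, a syndecan that binds Rspo3 (419 ± 102 and 528 ± 136 CPM). The related receptors Rxfp1 (2.31 ± 1.94 and 1.46 ± 0.655 CPM) and Lhcgr (1.40 ± 0.938 and 0.778 ± 1.56 CPM) were low. The ligases Rnf13 (77.7 ± 5.82 and 84.1 ± 7.59 CPM) and Rnf130 (69.0 ± 5.85 and 70.3 ± 3.84 CPM), which share the membrane and RING layout, led a list of 8 tested relatives, of which none passed.

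For members with a mean of at least 10 CPM, the genes with the most similar pattern over the 8 libraries were found by Pearson's r of log2 CPM among 8734 genes. The libraries are shared by all genes compared, and r is given as a description. Nearest to Lgr6 were Fgfr3 (r = 0.97), a receptor for fibroblast growth factors, Ocrl (0.96), a phosphatase of inositol lipids, and Cers6 (0.95), a ceramide synthase. After centring within each genotype these were 0.90, 0.83 and 0.69. Their levels were 18.6 ± 4.02 and 11.7 ± 0.546 CPM for Fgfr3, 53.7 ± 9.74 and 35.8 ± 2.08 CPM for Ocrl, and 38.6 ± 3.92 and 23.2 ± 4.28 CPM for Cers6. Cers6 passed with the block (edgeR adjusted p = 0.025) and the other two did not. Nearest to Lgr4 were Top2b (0.97), Tbcd (0.95) and Igfbp4 (0.94), to Lgr5 Map2k4 (0.98), Cish (0.97) and Dsg1a (0.97), and to Znrf3 Rbbp5 (0.96), Rcsd1 (0.94) and Sbno1 (0.94).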

How the data were processed

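Total RNA of 4 control and 4 Bmi1-deleted samples was sequenced after 1 stranded library each. The authors deposited estimated counts per gene as whole numbers, from Salmon 1.2.1 on mm10 per the submitters' processing notes, and a second table of log2 values, the binary logarithm of TPM plus 1 as the column sums of the undone values show. The sources used here do not give annotation version, decoys or strand setting. Symbols and positions were taken from GENCODE M21, with a symbol for 54096 of 54418 identifiers.

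The members and lists were chosen with earlier results of these data known. With edgeR 4.0.16, filterByExpr by group kept 16011 genes, and counts were scaled by TMM and compared with its robust quasi-likelihood F test, two-sided, on all 8 libraries (R 4.3.3). The threshold was an adjusted p of 0.05 (Benjamini-Hochberg) over all tested genes, and the 4 R-spondins fell under the filter. The log2 TPM were compared with limma 3.58.1 (trend, robust) for 23534 genes with a mean of at least 0.1. The tests were run on simulated data first. The planned permutation test of the Lgr6 share is not given, because that contrast chose the family. Intervals of log2 changes come from the edgeR fits and include the spread among libraries. Limits of 3 counts cover counting error only, and counts include PCR copies.

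Libraries were grouped by genotype as labelled, with the replicate number from the title. After centring within genotype, same-numbered libraries correlated across genes at 0.124 to 0.186, above 0.1 for each of the 4 pairs, so the numbers, whose source the labels do not explain, were treated as pairs. Whether they mark true pairs was not tested. In both groups libraries 1 and 2 had higher fibroblast sums than libraries 3 and 4, so libraries of different number were alike in this too. By their counts, control libraries 1 and 3 and Bmi1-deleted library 1 were female. Control libraries 2 and 4 and Bmi1-deleted libraries 2, 3 and 4 were male. Sex was thus not balanced between the groups, and the libraries numbered 3 differed in it. Results lead with the unblocked fit, and the blocked value is printed where it changed a call.

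Named were all members, Bmi1 and Cdkn2a, the 3 genes most like each member of at least 10 CPM (predicted gene models left out), and from each pathway list the genes that passed in either fit and the 2 with the highest mean CPM. Alternatives were the block, DESeq2 1.42.0, RLE and upper-quartile scaling, no filter and a filter of 10 CPM in 4 libraries, no robust estimation, each library left out, and for TPM other pseudocounts (0.1 and 0.01), no filter and a rescaling without Gm23935, which took 73.7% to 85.6% of the TPM. Covariates for the fibroblast score and sex, and the block without each pair, were added after seeing the data.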

Additional observations from a re-analysis of the deposited data

Results flagged for a closer look

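Among 128 groups of 4 library values checked, 10 had a library far from the other 3 by Dixon's test, which chance gives in about 1 of 20 groups. For Lgr6 the implied transcript length was 2842 bases in Bmi1-deleted library 1, against 6811 to 6815 bases in the other 3, and 6521 bases in control library 4, against 6814 to 6826 bases. The same Bmi1-deleted library stood apart in the share of Lgr6 in the receptors' TPM, 19.7% against 9.08% to 10.7%. Control library 2 stood apart in Rspo1, at 0.824 CPM and 0.218 TPM, from 8 counts, and in Rspo4, at 0.309 CPM and 0.0615 TPM, from 3 counts where the other control libraries had 0. The ratio of Lgr4 to Lgr5 in TPM was 4.78 in control library 4 and 2.99 to 3.21 in the other control libraries. Nkd1, a target gene of beta-catenin, was at 259 CPM in control library 1 and 189 to 201 CPM in the other controls. Lhcgr, a related receptor, was at 3.11 CPM in Bmi1-deleted library 3 and at 0 in the other 3. The causes were not tested.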

How the results depend on the processing

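Over 22 alternatives of the count test Lgr6 kept its direction (−1.63 to −0.995) and passed in 13, with edgeR or DESeq2 adjusted p from 9.31e-06 to 0.211. As the single member called lower, 1 was counted with the block (also without each pair), DESeq2, RLE, upper-quartile scaling, no filter, the filter of 10 CPM, sex, the fibroblast score with the block, and without control replicate 1, and leaving out single libraries gave 0 to 1. No member was called higher in any of them.

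The counts of all genes called were 14 higher and 1 lower. They were 273 and 113 with the replicate block (264 and 87, 89 and 24, 153 and 85, and 124 and 65 without pairs 1 to 4), 107 and 53 by DESeq2, 259 and 121 without a filter, 22 and 6 with the fibroblast score, and 89 and 30 with the score and the block. Lower calls alone were 3 with RLE and with upper-quartile scaling, 2 with the filter of 10 CPM and 0 without robust estimation. Leaving out single libraries gave 8 to 40 higher and 0 to 5 lower, 40 and 5 without control replicate 1, 8 and 0 without control replicate 2, and 9 higher without Bmi1-deleted replicate 2. The difference in the Lgr6 share was −14.4 percentage points of counts in place of −5.91 of TPM, and −8.35 to −4.68 without single libraries. The block changed no other call of a member, and the causes were not tested.

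Directions reversed for values that did not pass. With the fibroblast score, log2 changes were −0.0081 for Lgr4, −0.35 for Lgr5, −0.61 for Wnt4, 0.10 for Wls, −0.67 for Porcn, 0.18 for Dkk3 and −0.065 for Sdc4. With the score and the block they were −0.024 for Lgr4, −0.42 for Lgr5, 0.29 for Znrf3, −0.34 for Wnt4, −0.20 for Porcn, 0.061 for Dkk3, 0.016 for Iqgap1 and 2.23 for Rxfp1. With the block Wnt4 was −0.052. With the block and 1 pair left out, the lowest and highest were −0.13 and 0.09 for Lgr5, −0.25 and 0.26 for Wnt4 (also −0.20 and −0.037), −0.12 and 0.24 for Porcn, −1.16 and 0.54 for Rxfp1 and −0.065 and 0.073 for Rnf130. Without single libraries they were −0.12 and 0.14 for Lgr5, −0.28 and 0.27 for Wnt4, −0.062 and 0.43 for Porcn, −1.01 and 0.033 for Rxfp1 and −0.033 and 0.056 for Rnf130. In log2 TPM, Lgr5 was 0.073 after rescaling, and without single libraries the values were −0.28 and 0.077 for Lgr5, −0.26 and 0.054 for Rspo3 and −0.39 and 0.0012 for Znrf3.

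Depth limits the R-spondins, where 3 counts equal 0.298 to 0.340 CPM.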

Other observations

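Among the 10 pairs of the 5 tested members, Lgr6 and Rnf43 had the highest Pearson's r of log2 CPM over the 8 libraries (0.71), and r was −0.07 after centring within genotype. The ligases Znrf3 and Rnf43 had r of −0.01 over the 8 libraries and −0.79 after centring. Lgr4 and Lgr6 had r of 0.06, and 0.76 after centring. These are descriptions over 8 libraries that share 1 depth scale, chosen after their values were seen.

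The implied transcript length varied among libraries for the other tested members as well. It spanned 2809 to 4369 bases for Lgr4, whose longest annotated transcript has 5060, 2943 to 4732 bases for Lgr5, 2406 to 5779 bases for Znrf3, whose coding transcripts have 1022, 4926 and 6311 bases, and 1689 to 3981 bases for Rnf43. Genes with a single transcript stayed within 0.953 to 1.03 of their scaled length (5th to 95th percentile).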
